A study of Mus musculus with 12 samples.

Results

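Brain macrophages (MP) from glioma-bearing mice were compared with MP from normal brain on 1 array each, so the comparison rests on 2 of the 12 arrays of the series and was read over 19938 genes. The 2 arrays were chosen by their labels, Tumor Brain Macrophage and Normal Brain Macrophage, and no measured value entered the choice. The study sorted MP by flow cytometry as CD11b+/CD45high cells and microglia (MG) as CD11b+/CD45low cells, and asked how a growing tumor alters these myeloid populations. Both MP samples came from C57BL/6 mice, for which the labels give an age of 7 weeks, and the methods describe tumor-bearing mice as female. The tumor sample came from brains that carried GL261, a transplantable mouse glioma line, for 2 weeks after implantation, and the normal sample has the disease state Normal. The implantation text stands under all 12 samples, the normal ones included, and was read here as applying to the tumor samples. The number of mice behind each array is not given in the sources used here. The sort separates cells by 2 surface proteins, so any cell with CD11b and high CD45, from blood or from the borders of the brain, falls into the MP gate.

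The brain holds several kinds of macrophages. Microglia live in the tissue itself, whereas border-associated macrophages line the meninges, the choroid plexus and the vessels and carry scavenger receptors such as Lyve1 and Cd163. Monocytes and neutrophils circulate in blood, reach the meninges, and enter brain tumors, where monocytes can become tumor-associated macrophages. Interferons made by lymphocytes and other cells switch on chemokines, guanylate-binding proteins and antigen presentation in macrophages.

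A value in this report is the log2 signal of the brightest probe set of a gene, and a difference is tumor MP minus normal MP on that scale, so that 1 is a 2-fold difference. The background level of an array was the 95th percentile of its signals for 1027 olfactory receptor genes, which myeloid cells are not known to use, and it was 9.23 for tumor MP and 9.07 for normal MP. A gene below it on 1 array is given as at least N-fold different, with the dim value raised to background, and no fold is given for a gene below it on both. With 1 array per condition there is no spread between replicates, so no difference here was tested, and the precision is limited by the number of arrays. As a rough yardstick, the differences of the olfactory receptor genes had an SD of 0.39, with 1.66% of them higher and 1.07% lower by at least 2-fold. In bulk samples such as these, fewer cells of a type and less RNA per cell cannot be told apart.

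Several arrays resembled each other in ways that bear on the comparison. Across 19938 genes, Pearson's r of tumor MP was 0.97 with tumor MG and 0.96 with the Gr-1 negative cells labelled as tumor blood, but 0.90 with normal MP, a description over genes that share the same chip. Of 15 microglia markers, 13 lay above background on that Gr-1 negative blood array, as many as on normal MP. Of 12 NK cell markers, 12 and 10 lay above background on the blood macrophage arrays labelled tumor low and normal high, against 0 on those labelled tumor high and normal low. The sort markers themselves were present, since Itgam, which encodes CD11b, was at 12.23 in normal MP and 12.81 in tumor MP, and Ptprc, which encodes CD45, at 12.01 and 11.89.

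Genes with a lower signal in tumor MP outnumbered those with a higher signal. Among the 7952 genes that exceeded background on either MP array, 149 (1.87%) had a tumor signal at least 2-fold higher and 513 (6.45%) one at least 2-fold lower. Over all 19938 genes the counts were 328 (1.65%) and 714 (3.58%), and cyclic loess normalization, which moved the median of all genes by -0.12, gave 234 and 890. Both shares of higher genes were near the 1.66% among olfactory receptor genes, so the number of higher genes is no result by itself. Both shares of lower genes were above the 1.07% of olfactory receptor genes that were lower. Larger differences were also mostly lower, with 19 genes higher and 87 lower by at least 4-fold, and 6 and 21 by at least 8-fold. Most of the lower genes, 404 of 513, were above background on normal MP only, a class that held 1578 of the 7952 genes. Of the 149 higher genes, 80 were above background on tumor MP only, a class of 717 genes. Genes picked for a lower signal on 1 array fall below its background more readily, so both splits follow in part from the choice. Among the 5657 genes above background on both arrays, 69 were higher and 109 lower.

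**Figure D1:**
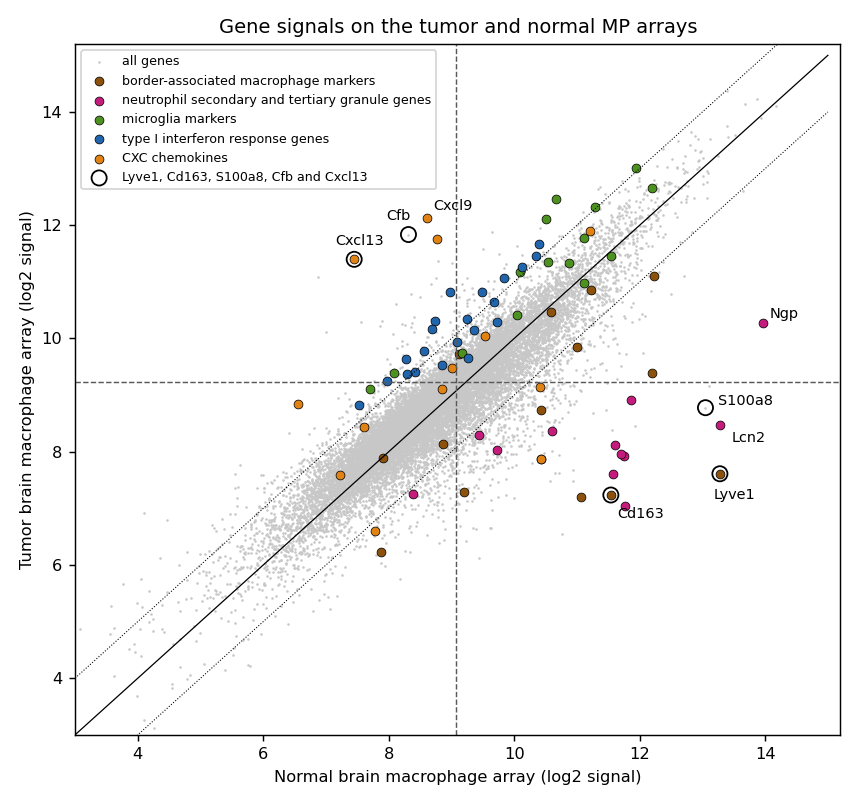
Log2 signal of 19938 genes on the tumor MP array (vertical axis) against the normal MP array (horizontal axis), with 5 gene lists in color. Dashed lines mark the background of each array, at 9.23 and 9.07, and dotted lines a 2-fold difference. Granule genes and border-associated markers lie to the lower right, with Lyve1 at 13.28 and 7.61, while Cxcl13, at 7.45 and 11.40, and Cfb lie to the upper left.

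Border-associated macrophage markers were lower on tumor MP. Of 15 measured, 10 were at least 2-fold lower and 0 higher, with a median difference of -1.65 against 0.12 for all genes. Their median level was 10.59 in normal MP and 8.14 in tumor MP, and 12 lay above background on normal MP against 6 on tumor MP. Lyve1, a hyaluronan receptor, had the largest difference of all genes above background, 13.28 in normal MP and 7.61 in tumor MP, at least 16.5-fold lower. Cd163, the hemoglobin scavenger receptor, was at 11.54 and 7.23, at least 4.95-fold lower. Cbr2, a carbonyl reductase, was at 11.06 and 7.21, at least 3.56-fold lower. All 3 genes were below background on each of the other 10 arrays, so normal MP was the only array with them above background.

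Other members of this list had a range of differences. The mannose receptor Mrc1 was at 12.20 in normal MP and 9.39 in tumor MP, 6.99-fold lower, and was above background on 4 other arrays. Pf4, platelet factor 4, was at 10.43 and 7.87, at least 2.30-fold lower, and on no other array above background. The scavenger receptor Stab1 was at 12.23 and 11.10 and stayed above background on both. Within the list the differences therefore ran from -5.67 for Lyve1 to 0.61 for the lectin Clec4n, which was the only member with a difference above 0. Cd209f was at 9.20 and 7.28, and since its normal value lay below the background of the tumor array, no bound on a lower level could be given. Of the 10 lower members, Cd209g was below background on both arrays.

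Neutrophil genes were the other large block on normal MP. Each of the 12 measured genes of the secondary and tertiary granules was lower by at least 2-fold, with a median of -3.60, and 11 of them lay above background on normal MP against 1 on tumor MP. Olfm4, the exception, was below background on both arrays. With dim values raised to background 9 of the 12 were lower, since Itgb2l was at least 1.15-fold and Hp at least 1.41-fold lower. Lcn2, the siderophore-binding lipocalin, was at 13.27 in normal MP and 8.47 in tumor MP, at least 16.5-fold lower. Lactoferrin, Ltf, was at 11.76 and 7.05, at least 5.78-fold lower. Camp, the cathelicidin antimicrobial peptide, was at 11.58 and 7.60, at least 5.09-fold lower. Ngp, a granule protein of neutrophils, was at 13.97 and 10.27, a difference of -3.71, and was the only member still above background on tumor MP.

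Genes of the neutrophil surface and cytosol followed in part. Of 14 measured, 7 were at least 2-fold lower and 0 higher, with a median of -1.17. With dim values raised to background 5 were lower. S100a8 and S100a9 encode the calprotectin subunits. S100a8 was at 13.05 in normal MP and 8.78 in tumor MP, at least 14.1-fold lower, and S100a9 at 13.11 and 9.16, at least 14.7-fold lower. Ly6g, the antigen that defines mouse neutrophils and is recognised by Gr-1 antibodies, was at 10.76 and 6.54, at least 2.88-fold lower. Cxcr2, the receptor that draws neutrophils to CXC chemokines, was at 10.65 and 8.56, at least 2.67-fold lower. Csf3r, the receptor of G-CSF, went against the list, at 10.74 and 11.01.

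The neutrophil genes of normal MP were above background on the blood arrays only in part. Mmp9, the gelatinase, was at 11.69 on normal MP, 12.92 on the tumor blood macrophage high array, 12.23 on normal blood macrophage low and 11.96 on blood Gr-1 positive cells. S100a8 was at 13.78, 12.78 and 12.92 on the same 3 blood arrays, and Cxcr2 was brighter there, at 13.43, 12.62 and 12.58 against 10.65 on normal MP. Lcn2 and the collagenase Mmp8 were also present on these 3 blood arrays, Lcn2 at 12.53, 11.41 and 11.55 and Mmp8 at 12.76, 11.69 and 11.71.

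Other members did not pass background on these blood arrays. Ltf was at 8.27, 7.18 and 8.72 on these blood arrays, below background on each, against 11.76 on normal MP. Camp was at 7.96, 7.38 and 8.45 there and Ly6g at 8.91, 8.20 and 8.52, also below background. A value below background does not show absence. On blood Gr-1 negative cells Ltf, Camp and Ly6g were dimmer still, at 5.53, 7.01 and 6.54. Ltf, Camp and Ly6g were thus above background on normal MP alone of the 12 arrays, while granule genes such as Lcn2 and Mmp8 were not. The 5 measured genes of the primary granules, which form earliest in the marrow, were below background on both MP arrays, Mpo and Elane among them.

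**Figure D2:**
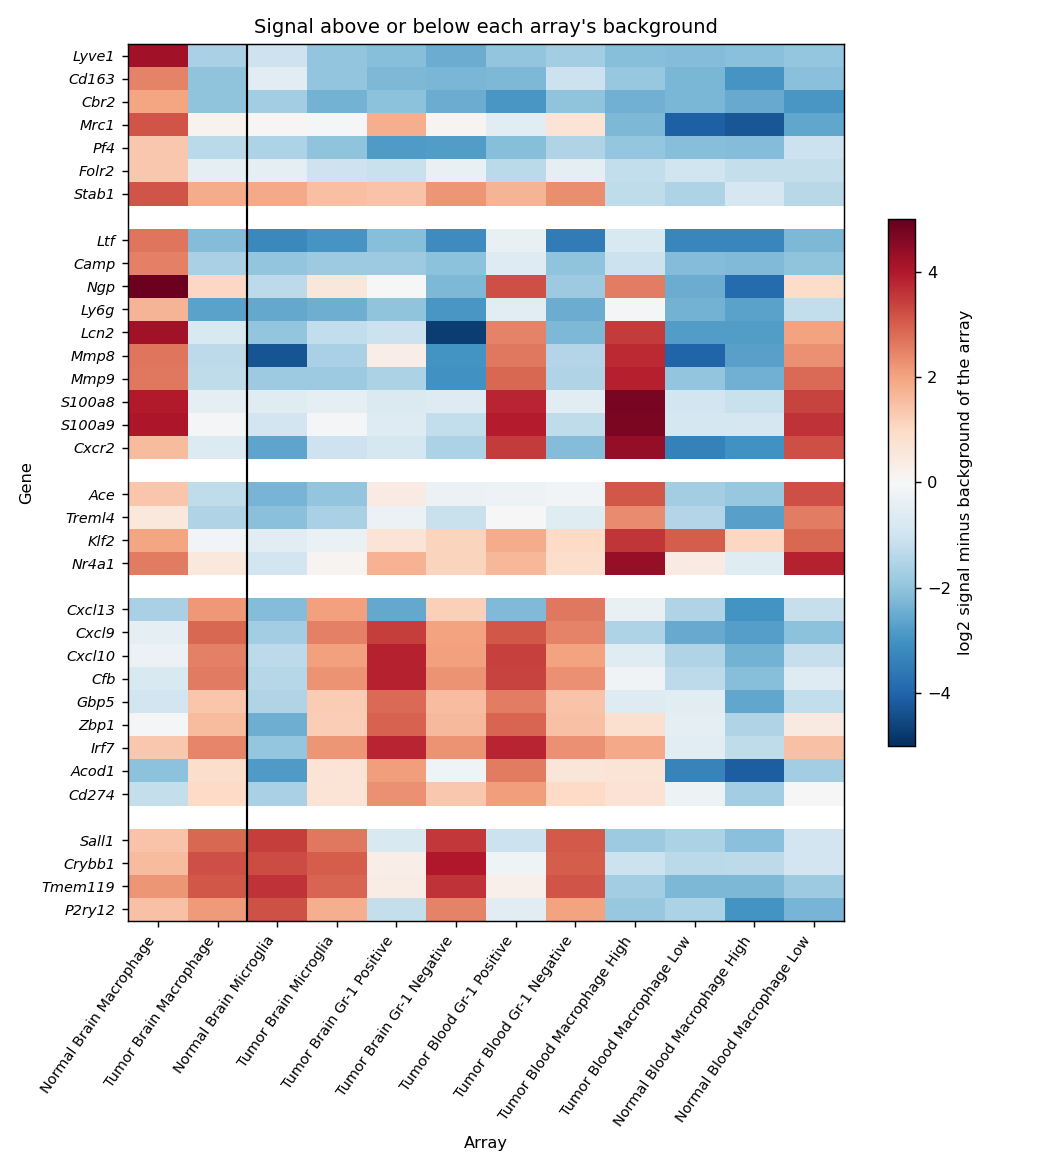
Log2 signal minus the background of the array for genes of the named lists (rows) on the 12 arrays (columns), with red above and blue below background and a line after both MP arrays. Lyve1, Cd163 and Cbr2, and further down Ltf, Camp and Ly6g, are red on normal MP only, while Mmp9, S100a8 and Cxcr2 are also red on 3 blood arrays. Cxcl9, Cfb and Irf7 are red on all tumor brain arrays and on both blood Gr-1 arrays.

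Markers of monocytes did not move together. Of 10 non-classical monocyte markers, 8 had at least 2-fold less signal in tumor MP and 0 more, with a median of -1.68. Fabp4, counted among the 8, was below background on both arrays, and with dim values raised to background 4 were lower. Ace, angiotensin-converting enzyme, was at 10.47 in normal MP and 7.98 in tumor MP, at least 2.36-fold lower. Adgre4 was at 9.87 and 7.51, at least 1.55-fold lower. Nr4a1, the nuclear receptor that patrolling monocytes depend on and also an immediate early gene, was at 11.67 and 9.75, 3.81-fold lower. Each of these was brighter on the tumor blood macrophage high and normal blood macrophage low arrays, where Ace was at 12.13 and 12.62. Pglyrp1, the member with the largest difference, is also a granule gene and was counted in both lists.

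The 10 classical monocyte markers were split, with 3 at least 2-fold higher, 1 of them below background on both arrays, and 2 lower, and a median of -0.23. With dim values raised to background, 1 was higher and 2 were lower. Chil3, a chitinase-like protein, was at 11.56 in normal MP and 8.39 in tumor MP, at least 5.04-fold lower, and F13a1, a coagulation factor subunit, at 12.06 and 9.74, 4.97-fold lower. Ly6i and Ms4a4c went the other way. Ly6i was at 7.97 and 9.64, at least 1.48-fold higher, and Ms4a4c at 10.22 and 11.29, 2.10-fold higher. Ccr2, the chemokine receptor that lets monocytes leave the marrow, was at 11.47 and 10.64 and so was well above background on both arrays.

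Lectins of dendritic cells and of alternatively activated macrophages were lower as well. Of 16 myeloid C-type lectins, 9 were at least 2-fold lower and 0 higher. Their median was -1.12, and over the 12 above background on either array 8 were lower and 0 higher, with a median of -1.23. With dim values raised to background, 4 were lower and the median was 0.07, a value that holds the fixed offset of 0.16 between the backgrounds of both arrays for each lectin below them. Cd209a, a DC-SIGN homologue of dendritic cells, was at 10.94 in normal MP and 7.48 in tumor MP, at least 3.27-fold lower. The galactose-binding lectin Mgl2 was at 10.94 and 7.67, at least 3.28-fold lower, and its neighbour on chromosome 11, Clec10a, was at 10.00 and 7.18, at least 1.71-fold lower. The dendritic cell list as a whole was mixed, with 4 of 12 lower, 1 higher and a median of -0.18, and with dim values raised to background 1 was lower and 1 higher. Flt3, a growth factor receptor of dendritic cells, was at 9.57 and 8.01, whereas Ifi205 was at 9.01 and 11.34, at least 4.82-fold higher. Xcr1 and Clec9a, which define cross-presenting dendritic cells, were below background on both arrays.

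The genes that were lower in tumor MP fell into groups by where else they were present. Of the 513, 124 were above background on no other array, 161 on normal MG, 219 on a blood array but not on normal MG, and 9 on tumor brain arrays only. The Gr-1 negative array labelled as tumor blood was counted as blood, although 13 of 15 microglia markers lay above background on it. The same classes were not counted over all 7952 genes, so these counts have no share to be set against. The share above background was 50.7% on the tumor blood macrophage high array and 15.4% on tumor MG, against 75.1% and 64.7% of all 7952 genes above background on either MP array. Most of the lower genes, 404 of 513, were below background on tumor MP, which tumor MG resembled, with an r of 0.97. Their low share on tumor MG was thus set in large part by the choice of genes. The 149 higher genes were counted in the same way. All of them were above background on at least 1 other array, 126 on tumor MG, 140 on the blood Gr-1 negative array and 63 on normal MG. Of all 7952 genes, 64.7% were above background on tumor MG, 86.4% on the blood Gr-1 negative array and 65.4% on normal MG. Most of the higher genes were above background on tumor MP by the same choice. Tumor MG and the blood Gr-1 negative array both resembled tumor MP, so the shares on them are no separate result. The share of all 7952 genes above background on at least 1 other array was not counted.

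**Figure D3:**
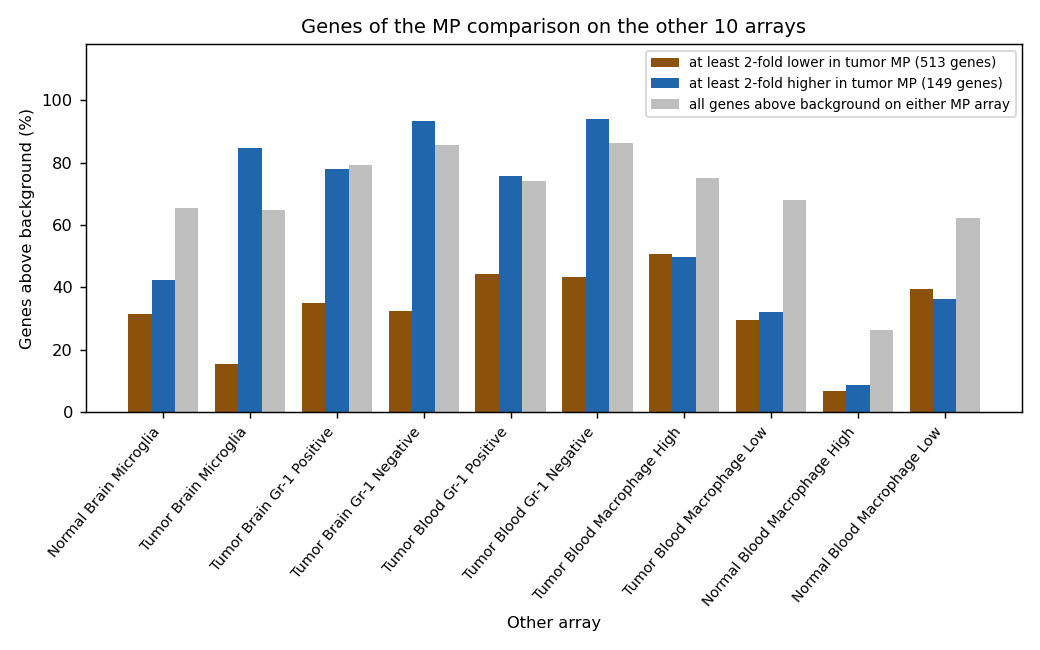
Percent of genes above background (vertical axis) on each of the other 10 arrays (horizontal axis) for 513 genes lower in tumor MP, 149 genes higher, and all 7952 genes above background on either MP array. Genes lower in tumor MP are least often present on tumor MG, at 15.4%, apart from the normal blood macrophage high array, where the share of all these genes was 26.4%. Genes higher in tumor MP are present on tumor MG in 84.6% and on normal MG in 42.3%. Both shares on tumor MG follow in large part from how the genes were picked, since tumor MG resembled tumor MP.

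Cxcl13, Cxcl9 and Cxcl10 were among the 10 genes with the largest higher differences. Of 13 CXC chemokines, 4 were at least 2-fold higher and 3 lower, of which Cxcl11 and the lower Ppbp were below background on both arrays. Cxcl13, which guides B cells into follicles, was at 7.45 in normal MP and 11.40 in tumor MP, at least 5.02-fold higher. Cxcl9 and Cxcl10 bind CXCR3 on activated T cells and NK cells. Cxcl9 was at 8.60 and 12.12, at least 8.29-fold higher, and Cxcl10 at 8.76 and 11.76, at least 6.46-fold higher. Cxcl11, their relative, was at 6.55 and 8.84, and Cxcr3 itself was at 9.32 and 8.81. Pf4 and Cxcl14 were lower, the latter at 10.42 and 9.14, at least 2.27-fold.

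Cxcl13 differed from Cxcl9 and Cxcl10 across the series. It was above background on tumor MP, at 11.40, on tumor MG at 11.41, on tumor brain Gr-1 negative cells at 10.11 and on blood Gr-1 negative cells at 11.67. On Gr-1 positive cells it was below background, at 6.46 in tumor and 6.90 in blood. Cxcl9 was at 12.49 and 12.18 and Cxcl10 at 12.85 and 12.52 on these same Gr-1 positive arrays, each above its value on tumor MP. Of these 3 chemokines, Cxcl13 alone was thus below background on the Gr-1 positive arrays. The CC chemokine Ccl12 had the same pattern, at 8.89 and 8.06 on them and at 10.89 and 9.96 on the Gr-1 negative arrays of tumor brain and blood.

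Ligands of the CC family were higher in part. Of 13, 4, with Ccl4 below background on both arrays among them, were at least 2-fold higher and 0 lower, with a median of 0.42. Ccl2, the ligand of CCR2 on monocytes, was at 8.21 in normal MP and 10.26 in tumor MP, at least 2.29-fold higher. Ccl12, another mouse ligand of CCR2, was at 8.07 and 10.07, at least 2.00-fold higher. Ccl5, which acts on T cells and monocytes, was at 9.25 and 10.68, 2.70-fold higher. Their neighbours on chromosome 11 did not all share this, and Ccl7 had a difference of 0.42 and Ccl11 of 0.18, both below background on both arrays. Among 12 chemokine receptors, Cxcr2 was at least 2-fold lower and 0 were higher.

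Cfb, which encodes complement factor B of the alternative pathway, was at 8.31 in normal MP and 11.83 in tumor MP, at least 6.80-fold higher. It was the only one of 14 complement genes at least 2-fold higher, and 1, Cd55, was lower but below background on both arrays. Its neighbour C2, the related protease of the classical pathway, was at 8.84 and 8.95, below background on both arrays. The C1q chains were above background on both and differed little, with 0.77 for C1qa, 0.69 for C1qc and 0.60 for C1qb. Properdin, Cfp, which stabilises the convertase that factor B forms, was at 11.08 and 10.47. The difference in this pathway was thus carried by 1 gene. Cfb was at 12.85 and 12.48 on the Gr-1 positive arrays of tumor brain and blood and at 8.02 on normal MG.

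Genes switched on by type I interferon were higher as a group. Of 21 measured, 14 were at least 2-fold higher and 0 lower, all 21 had a difference above 0, and the median was 1.14. Mx2, counted among the 14, was below background on both arrays, and with dim values raised to background 9 were at least 2-fold higher. On normal MP 11 of the list lay above background and on tumor MP 20. Zbp1, a sensor of nucleic acids, was at 8.98 in normal MP and 10.83 in tumor MP, at least 3.38-fold higher. Ifit2, an antiviral protein, was at 8.74 and 10.31, at least 2.37-fold higher. Irf7, which amplifies the interferon response, was at 10.40 and 11.67, 2.41-fold higher. The differences spanned a narrow range, from 0.39 for Cmpk2 to 1.85 for Zbp1.

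Responders to interferon gamma were also higher. Of 14 measured, 7 were at least 2-fold higher and 0 lower, with a median of 1.13. The guanylate-binding protein Gbp5, which helps assemble inflammasomes, was at 8.11 in normal MP and 10.61 in tumor MP, at least 2.91-fold higher. Iigp1, an immunity-related GTPase, was at 8.50 and 10.73, at least 3.16-fold higher. Gbp7, beside Gbp5 on chromosome 3, was at 9.59 and 11.01, 2.68-fold higher. Probe sets of such families can share sequence, so members cannot be fully separated on these arrays. Ciita, the master regulator of MHC class II, went against the list, at 9.92 and 9.22.

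The promoters of these genes were searched for 2 motifs on both strands of RefSeq windows that ran from 250 bases before to 50 bases after the start, in build GRCm38.p6. The former, for the core of the interferon-stimulated response element, is GAAA, any 2 bases and GAAA again, and the latter, for the gamma-activated site, is TTC, any 3 bases and GAA. Of the 21 type I genes 14 have a window in this table, and 8 of these (57.1%) held the former and 2 (14.3%) the latter. Of the 14 interferon gamma genes 9 have a window, and 6 (66.7%) held the former and 4 (44.4%) the latter. Of 10 CXC chemokines with a window, 2 held the former, Cxcl10 and the lower Cxcl14, while Cxcl9 and Cxcl13 held neither motif. Over all 27025 genes of the table the shares were 3.99% and 9.55%. Among the 149 higher genes, 19 of the 107 with a window (17.8%) held the former and 16 the latter, against 20 (4.91%) and 31 (7.62%) of 407 lower genes with a window. Of 32851 windows of the table, 149 held both motifs, and in 24 their matches overlapped. A match is a description of these letters and not a measured binding site.

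The 250 bases before the start of 4 members with a match are shown as examples of a chemokine, an IFIT gene and the neighbouring Gbp5 and Gbp7, 5′ to 3′ on the strand of the gene, with matches to either motif in capitals. Their positions are chr5:92348890-92349139 on the minus strand for Cxcl10, and on the plus strand chr19:34640639-34640888 for Ifit1, chr3:142496684-142496933 for Gbp5 and chr3:142530086-142530335 for Gbp7. Cxcl10 held 1 match to the response element motif and Ifit1 held 2, while Gbp5 and Gbp7 each held 1 and also 2 matches to the gamma-activated site motif.
Cxcl10: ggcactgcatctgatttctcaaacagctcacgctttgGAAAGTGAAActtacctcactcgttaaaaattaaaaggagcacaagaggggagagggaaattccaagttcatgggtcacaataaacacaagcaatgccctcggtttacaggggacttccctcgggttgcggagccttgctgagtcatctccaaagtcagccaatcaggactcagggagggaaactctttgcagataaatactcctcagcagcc
Ifit1: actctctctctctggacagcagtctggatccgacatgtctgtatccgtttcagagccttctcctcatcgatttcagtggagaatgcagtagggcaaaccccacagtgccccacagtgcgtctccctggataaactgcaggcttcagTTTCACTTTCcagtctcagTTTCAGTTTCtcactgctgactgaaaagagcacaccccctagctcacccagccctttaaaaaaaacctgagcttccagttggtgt
Gbp5: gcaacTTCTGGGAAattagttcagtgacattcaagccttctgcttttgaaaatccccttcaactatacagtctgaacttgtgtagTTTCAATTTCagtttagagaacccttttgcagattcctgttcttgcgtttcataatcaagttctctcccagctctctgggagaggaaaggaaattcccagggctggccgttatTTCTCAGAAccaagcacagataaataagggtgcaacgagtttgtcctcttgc
Gbp7: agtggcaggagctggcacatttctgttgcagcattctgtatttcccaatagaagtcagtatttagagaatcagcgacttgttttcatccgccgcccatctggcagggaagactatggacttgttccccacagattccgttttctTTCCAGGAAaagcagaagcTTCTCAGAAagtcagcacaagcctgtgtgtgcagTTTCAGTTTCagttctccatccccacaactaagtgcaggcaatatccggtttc

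Beside their promoters, the 4 genes had the following values. Cxcl10 was given above, and Gbp5 and Gbp7 had differences of 2.50 and 1.42. Ifit1 was at 8.27 in normal MP and 9.64 in tumor MP, at least 1.48-fold higher. All 4 were above background on both Gr-1 positive arrays, and Gbp5 was there at 11.86 in tumor brain and 11.66 in blood.

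**Figure D4:**
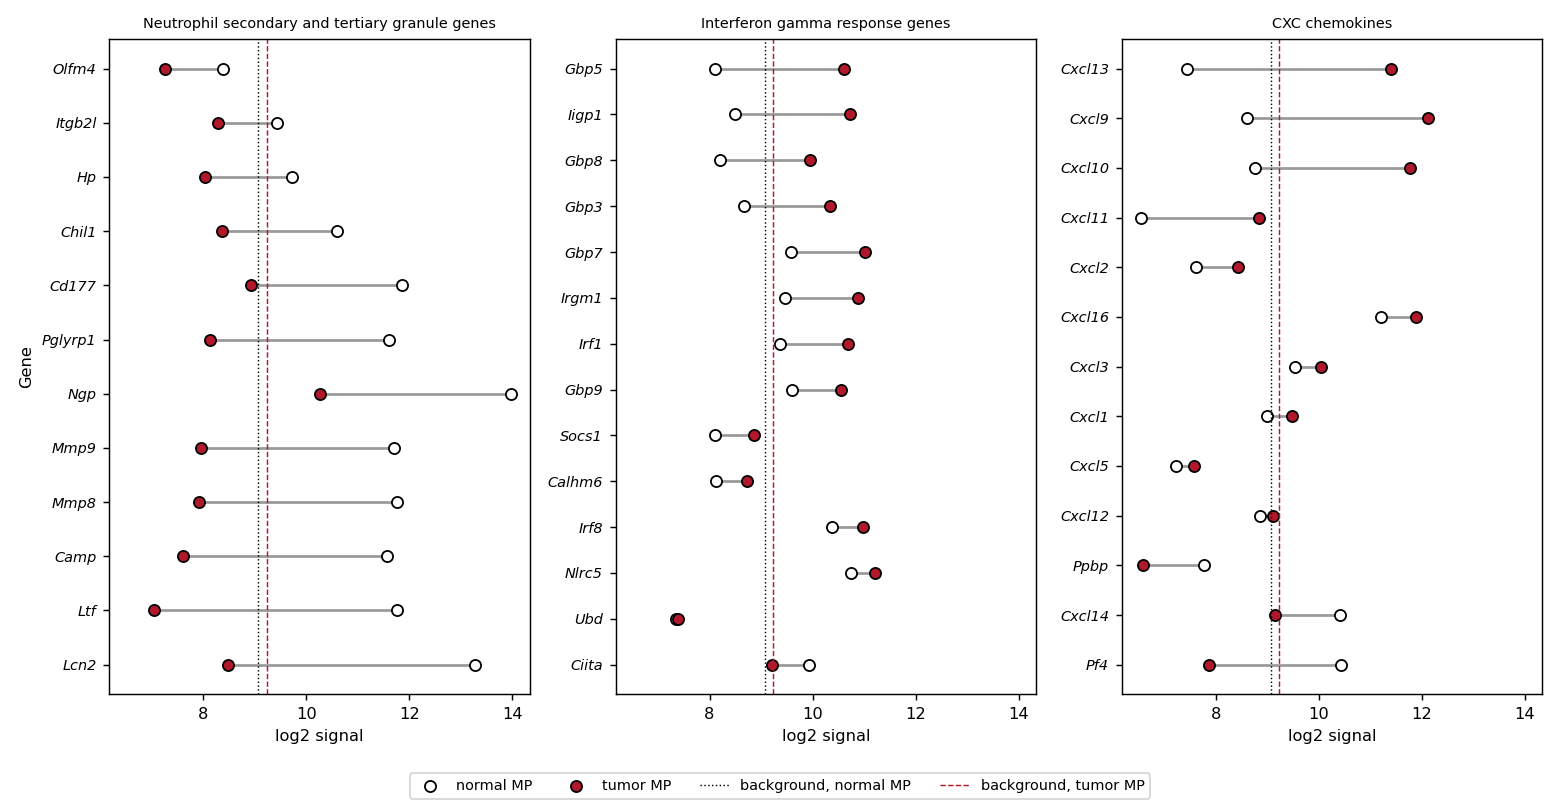
Log2 signal (horizontal axis) of 12 granule genes, 14 interferon gamma response genes and 13 CXC chemokines on normal MP (open circles) and tumor MP (red), with the background of each array as a vertical line. Granule genes run from right to left, with Lcn2 at 13.27 and 8.47, while 7 interferon gamma genes and Cxcl9, Cxcl10 and Cxcl13 run from left to right by more than 2-fold.

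Antigen presentation differed by class. Of 12 genes of the MHC class I pathway, 2 were at least 2-fold higher and 0 lower, with a median of 0.45. H2-Q4, a non-classical class I chain, was at 9.20 in normal MP and 10.86 in tumor MP, 3.17-fold higher, and the peptide transporter Tap1 at 10.71 and 11.80, 2.13-fold higher. The 7 class II genes were above background on both arrays and 0 differed by 2-fold. Their median was -0.18, and the chain H2-Ab1 was at 12.86 and 12.49. On normal MG, by contrast, H2-Ab1 was at 7.36, so that this chain set the 2 normal arrays apart and not the 2 MP arrays. The list median on normal MG was 7.68, but 3 of the 7 genes lay above background there. Of these, H2-DMa and Ifi30 were at 9.93 and 10.17 on normal MG, against 11.33 and 11.26 on normal MP. Ctss went the other way, at 13.34 on normal MG and 12.80 on normal MP.

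Genes used to describe macrophage activation did not sort into 1 programme. Of 16 classical activation genes, 5 had at least 2-fold more signal in tumor MP and 0 had less. Acod1, which makes itaconate, was at 7.00 in normal MP and 10.12 in tumor MP, at least 2.07-fold higher, and the cytokine Il1a was at 7.88 and 10.32, at least 2.37-fold higher. Cd86, a costimulatory ligand, was at 9.91 and 11.07, 2.24-fold higher, and the Fc receptor Fcgr1 at 11.44 and 12.54, 2.14-fold higher. Il12a, Il12b, Il23a and Il6 were below background on both arrays. Nos2, counted among the 5, was at 7.38 and 8.81 and also below background on both.

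The 16 alternative activation genes held 2 that were at least 2-fold higher and 7 lower, with a median of -0.47, and of these the higher Socs2 and the lower Retnla were below background on both arrays. Over the 10 members above background on either array, 1 was higher and 6 lower, with a median of -1.97. The lower members were largely the scavenger receptors and lectins named above, Cd163, Mgl2, Clec10a, Mrc1 and Stab1. The exception was Tgm2, a transglutaminase, at 8.78 in normal MP and 11.36 in tumor MP, at least 4.90-fold higher. Il4ra, the receptor chain for IL-4 and IL-13, chosen after its value was seen, was at 10.86 and 11.56. A shared list name thus covered genes with opposite differences.

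Among 14 checkpoint and suppression genes, 2 were at least 2-fold higher and 1, Cd200r1, lower but below background on both arrays, with a median of 0.52. Cd274, which encodes the T cell inhibitor PD-L1, was at 7.87 in normal MP and 10.22 in tumor MP, at least 2.22-fold higher. Il1rn, the antagonist of the IL-1 receptor, was at 8.83 and 10.74, at least 3.18-fold higher. Il10 and Ido1 were below background on both arrays. AW112010, a locus induced in activated immune cells, was among the 10 genes with the largest higher values, at 7.55 and 10.29, at least 2.33-fold higher.

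Genes of matrix turnover and phagocytosis gave further single differences. Of 19 growth factor and protease genes, 6 were at least 2-fold higher, Mmp2 and Timp1 of these below background on both arrays, and 2 lower. With dim values raised to background 3 were higher and 2 lower. The membrane protease Mmp14 was at 9.25 in normal MP and 11.08 in tumor MP, 3.55-fold higher, and the matrix protein Thbs1 at 9.76 and 11.48, 3.31-fold higher. Igf1, a growth factor, was at 10.62 and 9.12, at least 2.62-fold lower. Of 15 genes of lipid-laden phagocytes, 2 were higher and 1 lower, with the protease inhibitor Cst7 at 8.75 and 11.07, at least 4.01-fold higher. Lipoprotein lipase, Lpl, was at 9.90 and 8.60, at least 1.59-fold lower, so the list was not uniform.

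Of 16 scavenger and endocytic receptors, 6 were at least 2-fold lower and 0 higher, with a median of -0.41. Timd4, which binds phosphatidylserine on dying cells, was at 9.72 in normal MP and 7.90 in tumor MP, at least 1.41-fold lower. Iron and heme genes were lower in 6 of 13 and higher in 0, with a median of -0.90. The members with the largest differences, Lcn2, Ltf and Cd163, were those already counted among granule and scavenger genes. Ceruloplasmin, Cp, was at 10.87 in normal MP and 8.89 in tumor MP, at least 3.10-fold lower. Hpgd, which degrades prostaglandins, was at 11.88 and 10.30, a difference of -1.59. Hypoxia and glycolysis genes had a median of 0.64, with 1 of 14 higher, Vegfa, and 1 lower, Ndrg1. Vegfa was at 8.16 and 9.38, at least 1.24-fold higher, close to background.

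Transcription factors of macrophage identity were mostly equal. Of 19, 1 was at least 2-fold higher and 4 lower, 2 of the latter with dim values raised to background, with a median of -0.05, and Spi1, which encodes PU.1, was at 11.16 in normal MP and 10.92 in tumor MP, a value looked up after the fact. Klf2, a factor of circulating leukocytes, was at 11.05 and 9.09, at least 3.54-fold lower. Irf4 was at 9.42 and 7.36, at least 1.14-fold lower, and Klf4 at 9.96 and 8.29, at least 1.66-fold lower. Klf2 was at 12.59 on the tumor blood macrophage high array and 12.27 on normal blood macrophage low.

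Cell division genes differed little between the MP arrays. Of 17, 1 was at least 2-fold higher, a gene below background on both arrays, and 0 were lower, with a median of 0.10. Mki67 was at 9.87 in normal MP and 9.69 in tumor MP, and Ube2c at 9.90 and 10.12. On normal MP 9 of the 17 lay above background and on tumor MP 7, against 0 on normal MG. Mki67 was at 7.04 on normal MG, so the 2 normal arrays differed in these genes. Immediate early genes, which respond to handling and dissociation, had a median of -0.35, with 2 of 15 higher, both below background on both arrays, and Nr4a1 lower.

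Microglia markers were present on both MP arrays and higher on tumor MP. Of 15, 7 were at least 2-fold higher and 0 lower, with a median of 0.82, and the median level was 10.67 in normal MP and 11.35 in tumor MP. Of the 7, Upk1b was below background on both arrays and Sall3, at 8.08 and 9.39, was at least 1.25-fold higher. Crybb1, a crystallin gene of microglia, was at 10.67 and 12.46, 3.48-fold higher. Sall1, the transcription factor that maintains microglial identity, was at 10.51 and 12.10, 3.01-fold higher. Tmem119 was at 11.29 and 12.33, 2.06-fold higher. The median level was 12.44 on normal MG and 11.19 on tumor MG, so that the lists stood in opposite directions in the 2 gates, with a median of -1.05 in MG. The CD45high gate thus carried microglial transcripts on both arrays, and their part in the other differences was not tested.

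Some markers of astrocytes, neurons and oligodendrocytes were lower in tumor MP. Of 8 astrocyte markers, 4 were at least 2-fold lower, of 8 neuron markers 3 and of 7 oligodendrocyte markers 2, and 0 were higher. The medians were -0.82, -0.47 and -0.13. The lower neuron marker Syt1 was below background on both arrays. With dim values raised to background, 3 astrocyte, 1 neuron and 2 oligodendrocyte markers remained at least 2-fold lower. The gap junction gene Gja1 was at 10.76 in normal MP and 8.60 in tumor MP, at least 2.88-fold lower. Snap25, a synaptic protein, was at 10.60 and 8.82, at least 2.59-fold lower, and the myelin gene Mobp at 12.04 and 10.42, 3.07-fold lower. Gfap and Aqp4 of astrocytes, and Mog and Mag of oligodendrocytes, were below background on both arrays. Normal MG resembled normal MP here, with Mobp at 12.10 and Gja1 at 10.20. Of the 7 glioma and glial progenitor markers 0 differed by 2-fold, and only Sox2, at 9.19 on normal MP, was above background on either array.

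Markers of lymphocytes, mast cells and vessels gave few differences. Of 13 B cell, 11 T cell and 12 NK cell markers, 1 of each list was at least 2-fold higher, that of NK cells below background on both arrays, and 1 NK cell marker, Klrd1, was lower, with no bound because its normal value of 9.16 lay below the background of the tumor array. Of these markers, 9 of B cells, 6 of T cells and 11 of NK cells were below background on both arrays. Cd79a, Ms4a1 and Pax5 of B cells, Cd3d and Cd3g of T cells and Ncr1 of NK cells were among them. Some of the remaining B cell and T cell markers exceeded background on both. Ighm of B cells was at 10.65 in normal MP and 10.59 in tumor MP, and Cd4 of T cells at 9.67 and 9.57. Il7r, the receptor of interleukin 7, was at 8.33 in normal MP and 9.43 in tumor MP, at least 1.28-fold higher. Of the 9 mast cell and basophil, 4 erythroid, 7 endothelial and 8 pericyte and fibroblast markers, 0 differed by 2-fold.

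**Figure D5:**
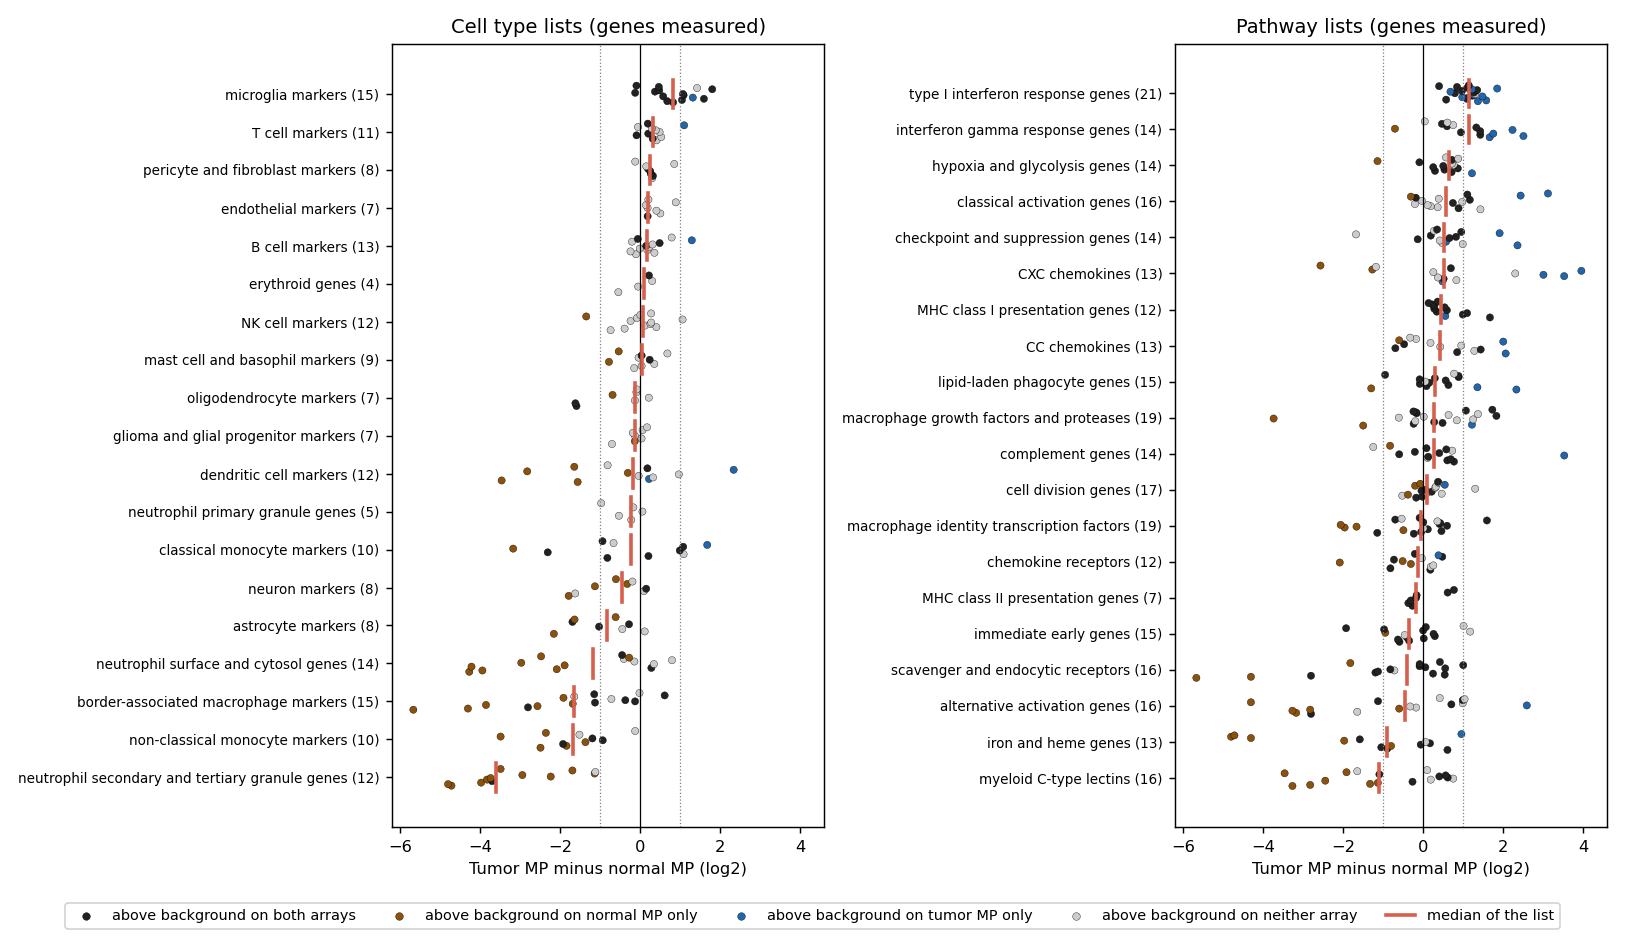
Log2 difference of tumor MP minus normal MP (horizontal axis) for each measured member of 19 cell type lists (left) and 20 pathway lists (right), ordered by the median of the list in red. Point color shows on which array a gene was above background. The granule genes have the lowest median, -3.60, and the type I interferon genes the highest, 1.14.

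Set beside the MG comparison, which uses 2 other arrays, several MP differences were smaller or absent. The median of the type I interferon genes was 1.14 in MP and 2.42 in MG, and that of the class II genes -0.18 and 5.04. On normal MG 0 of the 21 type I genes lay above background, while on tumor MG 16 did, against 11 and 20 on the MP arrays. Of the 7 class II genes, 3 lay above background on normal MG and 7 on tumor MG. The granule genes had a median of -3.60 in MP and 0.35 in MG, and the border-associated markers -1.65 and -0.45. Of the 12 granule genes, 0 lay above background on normal MG and 1 on tumor MG, so their MG median is one of dim values. Cxcl13 and Cfb had measured differences of 3.95 and 3.52 in MP and 4.15 and 3.58 in MG. Both were below background on normal MP and normal MG, so none of these is exact. Il1a had 2.43 in MP, where normal MP was below background, and -0.33 in MG, where normal MG was already at 10.39. Because tumor MP and tumor MG were close, these gaps lay mostly in the normal arrays, and no difference between the comparisons was tested.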

How the data were processed

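RNA of sorted cells was amplified in 2 cycles and hybridised to Affymetrix Mouse Gene ST arrays, 1 array for each of 12 samples. The deposited values are log2 signals, which the authors obtained with Expression Console and, per the labels' processing notes, RMA, with no settings given. The 75th percentile of an array lay between 9.40 and 9.73, that is, distributions differ among arrays, and a scaling offset can enter each difference. Of 28944 probe sets, 21789 have 1 gene symbol, 1621 several and 5534 none in the platform annotation given. The brightest probe set was used for the 999 genes with several. The methods' adjusted p-values need replicates and were not computed.

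Differences, 2-fold counts, list medians and background classes were computed with Python 3.11.15, numpy 2.4.6 and pandas 2.3.3, alternative normalizations with limma 3.58.1 in R 4.3.3, and figures with matplotlib 3.10.9. The code was tested on simulated data. Samples were grouped by their labels. The gene lists and members were chosen with earlier results of these data known. Named genes were the 5 marker genes, the 10 largest differences each way, and up to 6 members per list with 1 against its median and a defining marker at background. A gene held back from this text is not reported here. Alternatives were quantile, median and cyclic loess scaling, the mean of probe sets, raising dim values to background, a 90th percentile background and a 4-fold threshold.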

Additional observations from a re-analysis of the deposited data

Results flagged for a closer look

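The 440 measured list members, the 5 marker genes and the genes with the largest differences were searched for opposite differences in MP and MG. Of those above background on at least 1 array of each comparison, 5 had measured differences of at least 2-fold in opposite directions. The share of all genes with such opposite differences was not counted. With 1 array per condition these differences between the comparisons were not tested. Siglech, a lectin of microglia and plasmacytoid dendritic cells, was above background on all 4 arrays and had a difference of 1.08 in MP and -1.01 in MG. Ngp, the neutrophil granule gene, had -3.71 in MP and 1.82 in MG, and Clec12a, an inhibitory lectin of myeloid cells, had -1.10 and 3.46. Nr4a1 had -1.93 and 1.01. Normal MG was below background for these 3 genes, at 8.13 for Ngp, 6.76 for Clec12a and 8.49 for Nr4a1, so their MG differences are not exact. Il7r had 1.10 and -1.09, with normal MP, at 8.33, and tumor MG, at 8.85, below background, so neither of its differences is exact.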

How the results depend on the processing

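As deposited, the 2-fold counts over all genes were 328 higher and 714 lower. Raising dim values to background gave 102 and 223, keeping genes above background gave 149 higher, a 90th percentile background 165 higher, and a 4-fold threshold 27 and 96. Median centring gave 281 and 799, quantile normalization 298 and 807, cyclic loess 234 and 890, and the mean of probe sets 328 and 717. With dim values raised, list medians became -1.13 for border-associated markers, -2.42 for secondary and tertiary granule genes, -0.41 for neutrophil surface and cytosol genes, -0.79 for non-classical monocyte markers, 0.16 for alternative activation genes and 0.0661 for C-type lectins. Raising gives each gene below background on both arrays the offset of 0.16 between their backgrounds, so these medians move toward that value by construction. With members above background alone, they were -2.28 for neutrophil surface and cytosol genes and -1.97 for alternative activation genes. Raising also turned Cd209f to 0.0323, Klrd1 to 0.0682 and Clec4b1 to 0.0998. Of 178 named genes 102 were past 2-fold as deposited, and 100 of these remained under cyclic loess and 78 with dim values raised. A move was judged against the SD of 0.39 among olfactory receptor genes, which stands in for replicates. Genes below background have only bounds. Leaving out a replicate was not possible. No paired analysis was possible because each group has 1 array.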
